A study of Mus musculus with 12 samples.

Results

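The genes described here encode the matrix metalloproteases (Mmp), the ADAMTS proteases (Adamts) and the tissue inhibitors of metalloproteases (Timp), as measured in biopsies of mouse colon tumors. They were chosen by symbol alone, as probe sets that name exactly 1 gene whose symbol is Mmp, Adamts or Timp followed by its number. Where a gene had several probe sets, the one with the highest mean over the 12 arrays was kept. This gave 44 of the 19938 genes on the arrays, made up of 22 Mmp, 18 Adamts and 4 Timp genes. The animals were F1 hybrids of SWR and C57BL/6 mice, and all 6 carried Apc Min/+, a truncating mutation in 1 copy of a suppressor of Wnt signalling that starts intestinal tumors. All 6 had also drunk dextran sodium sulfate, which injures the colon lining, at a strength of 4% in 2 rounds around weaning. For each mouse, 1 array held the first and 1 array the last biopsy of the same tumor, so the arrays form 6 early and late pairs. The late biopsies of mice 1755, 1803 and 1805 were labelled adenoma, a benign tumor, and those of mice 2201, 3407 and 3413 intramucosal carcinoma, a cancer still within the mucosa. The labels give the early biopsies no pathology, so each was placed by the final pathology of its mouse. Age at biopsy was 94.3 ± 11.8 days early (SD, n = 6), 333 ± 86.4 days in late adenomas (SD, n = 3) and 227 ± 35.2 days in late carcinomas (SD, n = 3). Late adenomas ranged from 234 to 395 days and late carcinomas from 200 to 267 days, and the part of age in what follows was not tested. Mice 1755 and 3407 were female and the other 4 male, and neither untreated mice nor normal colon are among the samples used here.

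Metalloproteases are made as inactive precursors and cut collagens, laminins, proteoglycans and cell surface proteins once a propeptide is removed. The ADAMTS proteases carry thrombospondin repeats that hold them to the matrix, and they mostly cut proteoglycans, procollagens and blood proteins. TIMPs bind the active site of these enzymes and block it. In intestinal tumors most members are made by stromal and immune cells, whereas Mmp7 is known as a product of the tumor epithelium. Because the amount of active enzyme depends on precursor cleavage and inhibitors, the RNA levels given here are not measures of protease activity.

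A run of 10 Mmp genes lies close together on chromosome 9, and several of them are textbook targets of AP-1, a dimer of Fos and Jun proteins. The stretches just before their starts are shown because Mmp3 and Mmp8 of this cluster gave the largest differences of any member within a single mouse, 3.59 in mouse 3407 and 3.27 in mouse 1805. The AP-1 motif TGANTCA, which is its own reverse complement, was searched in RefSeq promoter windows that run from 250 bases before to 50 bases after a start. It was found in at least 1 window for 8 of the 10 Mmp genes of chromosome 9 and for 0 of the 20 other members with a window. For comparison, 2565 of 32851 windows held it (7.81%), and 8.97% of genes held it in any window. The sequences below are the 100 bases before the start on the plus strand of GRCm38.p6, at chr9:7272414-7272513 for Mmp13, chr9:7445722-7445821 for Mmp3, chr9:7502242-7502341 for Mmp10, chr9:7691990-7692089 for Mmp7 and chr9:7558329-7558428 for Mmp8. Capitals mark the motif.
Mmp13: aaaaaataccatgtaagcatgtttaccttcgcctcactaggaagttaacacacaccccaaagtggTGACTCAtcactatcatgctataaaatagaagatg
Mmp3: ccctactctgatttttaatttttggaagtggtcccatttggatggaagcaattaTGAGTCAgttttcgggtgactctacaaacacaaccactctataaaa
Mmp10: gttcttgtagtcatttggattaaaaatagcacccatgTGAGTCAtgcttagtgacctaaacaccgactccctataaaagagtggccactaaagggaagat
Mmp7: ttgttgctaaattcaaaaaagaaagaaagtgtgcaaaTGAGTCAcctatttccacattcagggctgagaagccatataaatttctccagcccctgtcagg
Mmp8: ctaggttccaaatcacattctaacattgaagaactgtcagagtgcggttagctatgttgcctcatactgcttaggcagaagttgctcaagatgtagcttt
The motif began 35 bases before the start in Mmp13, 46 in Mmp3, 63 in Mmp10 and 63 in Mmp7, and these letters do not occur in the window of Mmp8. It was also present in the windows of Mmp1a, Mmp1b and Mmp20. In Mmp20 it read TGAATCA, whereas the other matches of members read TGAGTCA or TGACTCA. Mmp12 and Mmp7 have 2 windows each, of which 1 held it, the downstream one in Mmp12 and the upstream one in Mmp7. The window of Mmp27 did not hold it. A match describes the sequence and is no evidence that a factor binds there.

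Values are log2 intensities, so a difference of 1 is a 2-fold difference in signal, and levels are compared only within a gene. Array medians ran from 7.62 to 7.8. Olfactory and vomeronasal receptor genes, which are not known to be used in colon tumors, gave a guide to background: 95% of their means lay below 6.78, and a gene under that level is called dim here. Of the members 37 were not dim (84.1%, against 73.6% of all genes), namely 17 Mmp, 16 Adamts and 4 Timp genes. The 7 dim members were Mmp1a, Mmp1b, Mmp16, Mmp21, Mmp27, Adamts19 and Adamts20. All 8 epithelial markers examined were above the dim level, and their mean was 11.55 to 12.96 on every array. A split into 2 array groups was read from the 50 lowest-numbered probe sets, of which 0 have a gene name. Here the early arrays of mice 1755, 1803, 1805 and 2201 averaged 7.08 to 7.19, and the other 8 arrays 6.8 to 6.94. These are called the first and the second array group, and the late arrays all belong to the second. For 4 mice, including the 3 with adenoma, the pair thus spans both groups and is called a crossing pair, whereas both arrays of mice 3407 and 3413 lie in the second. The sources used here do not say what separates the array groups. For members given mouse by mouse, late minus early values are therefore also given as means of the 4 crossing pairs and of the 2 pairs within the second group.

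Late biopsies were first compared with early ones over all 6 mice, which asks how the tumor's protease genes differed between the first and last look. Most members were higher late than early, with the collagenase Mmp8, the gelatinase Mmp2, Adamts12 and Mmp19 having the largest of the differences with an unadjusted p under 0.05. The difference was above 0 for 31 of the 44 members, with a median of 0.158 on the log2 scale, against 42.1% of all genes and a median of -0.0203. No member passed the adjusted threshold of 0.05 in limma, a linear model fitted to all 19938 genes with the mouse as a block. Among all genes the share that passed was 0%, and the smallest adjusted p of a member was 0.221. At an unadjusted p under 0.05 there were 8 members, 7 of them higher late, where the share of all genes was 14.7% in either direction and 5.68% in the higher direction. The 7 were Mmp2, Mmp8, Mmp19, Mmp25, Adamts5, Adamts12 and Timp2, and the one lower late was Adamts17. The count of 8 was 15 without mouse 3413 and 1 in a model with a term for the array group. That 1 was Adamts6, lower late at -0.223 and not among the 8. Averaged over the 4 crossing pairs, 33 of 44 members were higher late, with a median difference of 0.289. Averaged over the 2 pairs within the second array group, 22 of 44 were higher, with a median of -0.002. The share of all genes was not counted for these averages. In single crossing pairs, 35.07% (mouse 2201) to 50.18% (mouse 1755) of all genes were higher late. It was 52.57% in mouse 3407 and 47.04% in mouse 3413. The part of the array groups in these differences was not tested beyond these values. In bulk biopsies, moreover, more cells of a type and more RNA per cell cannot be told apart.

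**Figure D1:**
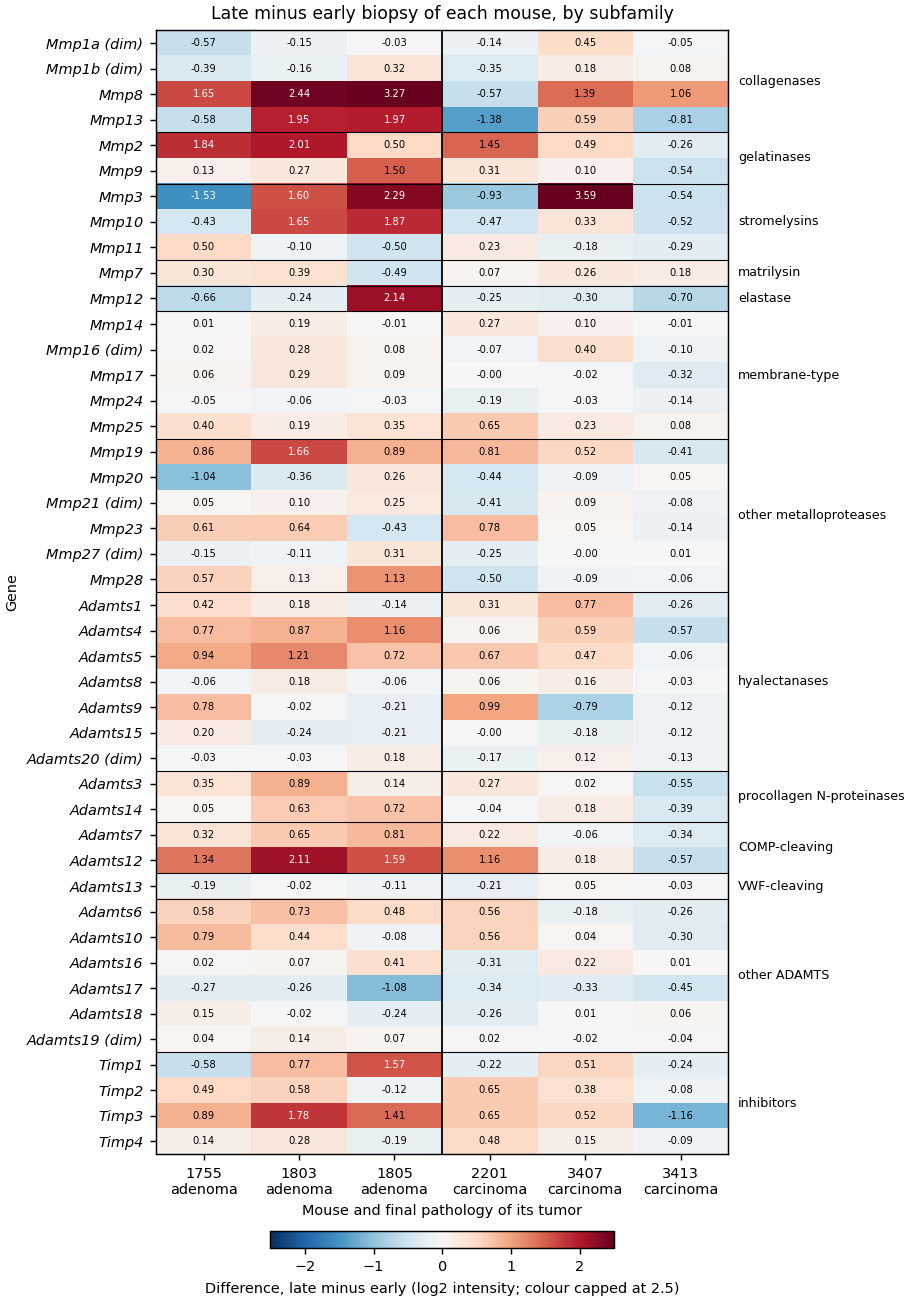
Difference between the late and the early biopsy of each mouse (columns, log2 intensity, late minus early) for all 44 genes (rows, grouped by subfamily), with the value in each cell and the colour capped at 2.5. The adenoma mice stand left of the vertical line and the carcinoma mice right of it. Mouse 3413 had 8 of 44 genes higher late, against 47.04% of all genes. The highest single value is that of Mmp3 in mouse 3407, at 3.59.

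Collagenases cut the triple helix of fibrillar collagen. Mmp8, the collagenase of neutrophil granules, measured 5.90, 5.06 and 5.36 early in mice 1755, 1803 and 1805 and 7.55, 7.50 and 8.63 late. In carcinoma mice 2201, 3407 and 3413 it measured 6.93, 6.64 and 6.83 early and 6.36, 8.03 and 7.90 late. It was higher late in 5 of 6 mice, mouse 2201 being the exception. The difference was 1.54 (SE 0.435, n = 6 pairs, limma adjusted p = 0.253). It averaged 1.7 ± 1.65 over the crossing pairs (SD, n = 4) and 1.23 ± 0.228 over the pairs within the second array group (SD, n = 2). The early adenoma values all lie below the dim level, so the size of the difference is not resolved there, and the late adenoma mean lay 1.12 above that level. The mean of 8 neutrophil markers, 7 of them not dim, was 7.808 to 8.448 in early and 8.632 to 9.9 in late adenomas, and 8.171 to 9.03 in early and 8.275 to 8.903 in late carcinomas. It differed, late minus early, by 0.7071, 0.8247 and 1.67 in the adenoma mice and by -0.7552, 0.09549 and 0.7324 in mice 2201, 3407 and 3413. Mouse 2201 was the one mouse in which both this mean and Mmp8 were lower late, and the part of neutrophil content in the difference was not tested.

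Mmp13, the main interstitial collagenase of rodents, varied from mouse to mouse. Early it measured 12.43, 10.96 and 11.67 in the adenoma mice and 12.59, 12.92 and 12.59 in the carcinoma mice. Late it measured 11.86, 12.92 and 13.65 in the adenoma mice and 11.21, 13.51 and 11.78 in the carcinoma mice. Mice 1803, 1805 and 3407 were higher late by 1.95, 1.97 and 0.59, and the other 3 mice were lower, so the mean difference of 0.29 (SE 0.481) was smaller than its error, with 0.493 in the crossing pairs and -0.112 in the others. Mmp1a and Mmp1b, the mouse counterparts of human MMP1, were dim on every array, with values between 4.27 and 5.44.

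Gelatinases cut denatured collagen and the type IV collagen of basement membranes. Mmp2, made mostly by fibroblasts, measured 10.14, 10.17 and 10.76 early in the adenoma mice and 11.98, 12.18 and 11.26 late. Its levels in the carcinoma mice were 10.52, 11.46 and 12.23 early and 11.97, 11.95 and 11.98 late. Late levels were close together, apart from that of mouse 1805, whereas early levels ran from 10.14 in mouse 1755 to 12.23 in mouse 3413. The difference was 1.01 (SE 0.300, limma adjusted p = 0.258), and 5 of 6 mice were higher late. It was 1.45 ± 0.673 in the crossing pairs (SD, n = 4) and 0.117 ± 0.527 in the pairs within the second array group (SD, n = 2). The mean of 10 fibroblast markers, 9 of them not dim, was 8.894 to 10.05 in early and 10.36 to 10.87 in late adenomas, and 9.611 to 11.06 in early and 10.52 to 10.65 in late carcinomas. It differed by 1.079 in the crossing pairs and by -0.0801 in the others, and its part in the Mmp2 difference was not tested.

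Mmp9, which neutrophils store and macrophages and other cells make, went in the same direction as Mmp2 in each mouse. It was higher late in 5 mice and lower in 1, but the sizes of its differences did not follow those of Mmp2. In the adenoma mice Mmp9 measured 10.90, 10.81 and 10.64 early and 11.03, 11.08 and 12.13 late. The carcinoma mice had 11.92, 12.09 and 12.50 early and 12.24, 12.18 and 11.96 late. Only mouse 1805 differed by more than 1 between its biopsies, and the mean difference was 0.30 (SE 0.224, limma adjusted p = 0.573), with 0.553 in the crossing pairs and -0.22 in the others. The carcinoma mice were thus above the adenoma mice from the early biopsy on, with the late biopsy of mouse 1805 as the one adenoma value that reached them.

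Stromelysins cut many matrix proteins and activate other precursors. Mmp3, stromelysin 1, measured 9.46, 6.67 and 7.44 early and 7.93, 8.28 and 9.74 late in the adenoma mice. In the carcinoma mice it measured 8.70, 8.08 and 8.95 early and 7.78, 11.67 and 8.42 late. The differences ran from -1.53 in mouse 1755 to 3.59 in mouse 3407, and their mean of 0.75 (SE 0.678) was close to its error. The crossing pairs averaged 0.36 and the others 1.53. Mmp10, stromelysin 2, measured 12.23, 11.22 and 11.48 early and 11.79, 12.87 and 13.35 late in the adenoma mice. Its carcinoma values were 12.60, 12.99 and 12.90 early and 12.13, 13.33 and 12.38 late, and its mean difference over the 6 mice was 0.40 (SE 0.366), with 0.654 in the crossing pairs and -0.0922 in the others. Mice 1803, 1805 and 3407 were again those with the higher late value. Mmp11, stromelysin 3, differed by -0.06 (SE 0.127), with single mice between -0.50 and 0.50.

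Mmp7, the matrilysin of tumor epithelium and Paneth cells, differed by -0.49 to 0.39 between the biopsies of a mouse, with levels from 11.36 to 13.19. It measured 12.89, 12.52 and 11.84 early and 13.19, 12.91 and 11.36 late in the adenoma mice. The carcinoma mice gave 12.99, 12.66 and 12.60 early and 13.06, 12.92 and 12.77 late. It was higher late in 5 of 6 mice by at most 0.39, and mouse 1805 was lowest at both times. The crossing pairs averaged 0.0681 and the others 0.22. Mmp12, the elastase of macrophages, was lower late in 5 of 6 mice and higher in mouse 1805 alone. It measured 10.82, 10.79 and 10.41 early and 10.15, 10.55 and 12.55 late in the adenoma mice, and 11.11, 10.96 and 10.67 early and 10.86, 10.66 and 9.97 late in the carcinoma mice. The mean difference was -0.00 (SE 0.357), with 0.246 in the crossing pairs and -0.501 in the others. The mean of 8 macrophage markers differed by 0.04599 in mouse 1805, less than in mice 1755, 1803 and 2201.

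**Figure D2:**
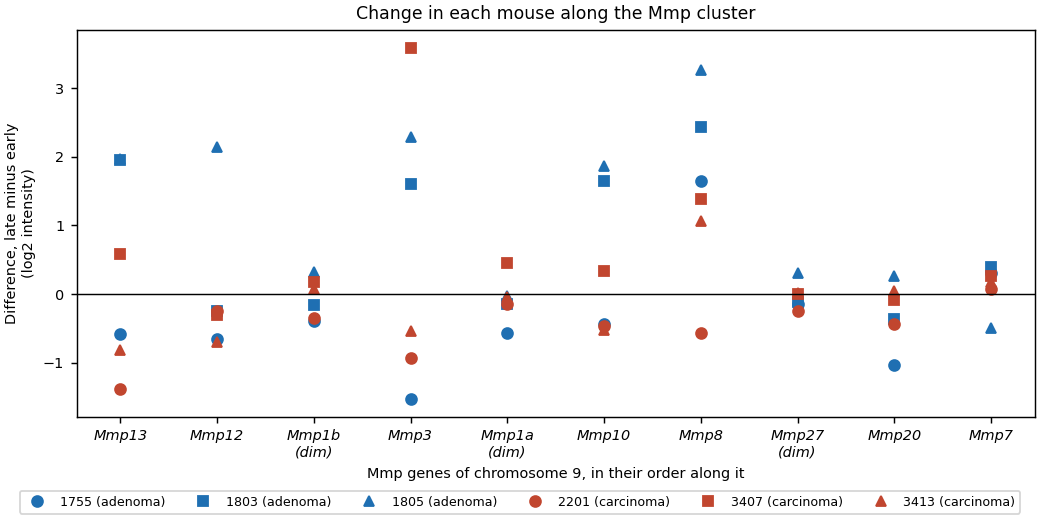
Difference between the late and the early biopsy (vertical axis, log2 intensity) of the 10 Mmp genes of chromosome 9 in their order along the chromosome, with 1 point per mouse, coloured by final pathology. The points of Mmp13, Mmp3 and Mmp10 lie on both sides of 0, those of Mmp8 above 0 in 5 of 6 mice and those of Mmp7 between -0.49 and 0.39.

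Membrane-type metalloproteases act at the cell surface. Mmp14, which activates the Mmp2 precursor, was steady. Early levels were 11.89, 12.19 and 11.85 in the adenoma mice and 11.99, 12.31 and 12.35 in the carcinoma mice. Late levels were 11.91, 12.38 and 11.84 and 12.27, 12.41 and 12.34, so that no mouse differed by more than 0.27, and the mean difference was 0.09 (SE 0.0574), with 0.117 in the crossing pairs and 0.043 in the others. Mmp25, a lipid-anchored protease of leukocytes, was higher late in 6 of 6 mice. It measured 6.78, 6.95 and 7.15 early and 7.18, 7.15 and 7.50 late in the adenoma mice, and 6.96, 6.84 and 7.18 early and 7.61, 7.07 and 7.26 late in the carcinoma mice. All of these are near or little above the dim level. The difference was 0.32 (SE 0.0780, limma adjusted p = 0.235), at 0.397 ± 0.187 in the crossing pairs (SD, n = 4) and 0.153 ± 0.105 in the others (SD, n = 2). Mmp24 was lower late in 6 of 6 mice, with differences from -0.19 to -0.03. Genes with 1 direction in all 6 mice made up 7.77% of all genes, and 3 of the 44 members were among them, Mmp24, Mmp25 and Adamts17. Mmp16 was dim, and Mmp17 differed by 0.02 (SE 0.0780).

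Among the other metalloproteases, Mmp19, a protease of stromal and myeloid cells, was higher late in 5 of 6 mice. It measured 7.92, 7.01 and 8.22 early and 8.78, 8.67 and 9.11 late in the adenoma mice. In the carcinoma mice it measured 7.92, 8.57 and 9.0 early and 8.73, 9.09 and 8.59 late. The difference was 0.72 (SE 0.227, limma adjusted p = 0.27), at 1.06 ± 0.404 in the crossing pairs (SD, n = 4) and 0.0533 ± 0.657 in the others (SD, n = 2). Mmp20, Mmp23 and Mmp28 differed by -0.27, 0.25 and 0.20, each with an unadjusted p above 0.05. The dim genes Mmp21 and Mmp27 differed by -0.00 and -0.03.

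Hyalectanases cut aggrecan, versican and related proteoglycans. Adamts5 had the smallest p of the members. It measured 6.24, 6.20 and 6.59 early and 7.19, 7.41 and 7.30 late in the adenoma mice, and 6.80, 7.30 and 7.50 early and 7.48, 7.77 and 7.43 late in the carcinoma mice. It was higher late in 5 of 6 mice, with mouse 3413 at -0.06, and its early adenoma values all lay below the dim level. The difference was 0.66 (SE 0.150, limma adjusted p = 0.221), at 0.885 ± 0.247 in the crossing pairs (SD, n = 4) and 0.204 ± 0.377 in the others (SD, n = 2). Adamts4, the other main aggrecanase, measured 8.12, 8.23 and 8.28 early and 8.89, 9.09 and 9.44 late in the adenoma mice. Its carcinoma values were 8.95, 9.25 and 9.59 early and 9.01, 9.84 and 9.02 late. All 3 adenoma mice were higher late, whereas the carcinoma mice scattered around 0, with an overall difference of 0.48 (SE 0.214, limma adjusted p = 0.352). The crossing pairs averaged 0.716 and the others 0.0121. Adamts1 measured 7.83, 8.62 and 8.57 early and 8.24, 8.80 and 8.43 late in the adenoma mice, and 8.58, 8.99 and 9.01 early and 8.89, 9.76 and 8.75 late in the carcinoma mice. Its difference was 0.21 (SE 0.132), positive in 4 of 6 mice, with 0.192 in the crossing pairs and 0.255 in the others. Adamts8, Adamts9, Adamts15 and the dim Adamts20 differed by -0.09 to 0.10.

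Adamts7 and Adamts12 cut cartilage oligomeric matrix protein. Adamts12 measured 8.22, 7.84 and 8.36 early and 9.56, 9.95 and 9.95 late in the adenoma mice. In the carcinoma mice it measured 8.37, 9.62 and 10.33 early and 9.53, 9.80 and 9.76 late. The 4 early arrays of the first array group lay at 8.37 or lower, and the 8 arrays of the second at 9.53 or higher. The difference was 0.97 (SE 0.329, limma adjusted p = 0.274), at 1.55 ± 0.413 in the crossing pairs (SD, n = 4) and -0.193 ± 0.532 in the others (SD, n = 2). The sign thus differed between the crossing and the other pairs. Adamts7 measured 8.57, 8.69 and 8.71 early and 8.89, 9.34 and 9.52 late in the adenoma mice, and 8.95, 9.47 and 9.65 early and 9.17, 9.40 and 9.31 late in the carcinoma mice. Its difference was 0.27 (SE 0.149, limma adjusted p = 0.439), positive in all 4 crossing pairs (mean 0.501) and in 0 of the 2 others (mean -0.201).

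The procollagen N-proteinases Adamts3 and Adamts14, which trim fibrillar procollagens, differed by 0.19 (SE 0.161) and 0.19 (SE 0.146). Adamts13, the protease of von Willebrand factor, differed by -0.09 (SE 0.0539). Of the remaining ADAMTS genes, Adamts17 was lower late in 6 of 6 mice. It measured 10.23, 10.96 and 10.72 early and 9.97, 10.70 and 9.64 late in the adenoma mice, and 10.33, 11.02 and 10.65 early and 9.99, 10.69 and 10.20 late in the carcinoma mice. The difference was -0.45 (SE 0.113, limma adjusted p = 0.235). It was much the same in crossing pairs, at -0.485 ± 0.399 (SD, n = 4), as in the others, at -0.391 ± 0.0822 (SD, n = 2). All 5 of its probe sets were lower late, with mean differences from -0.777 to -0.247. Adamts6 differed by 0.32 (SE 0.147), with 0.586 ± 0.103 in the crossing pairs (SD, n = 4) and -0.223 ± 0.0578 in the others (SD, n = 2). Adamts10, Adamts16, Adamts18 and the dim Adamts19 differed by -0.05 to 0.24.

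All 4 inhibitors had a higher mean late than early. Timp3, which is bound to the matrix and also blocks ADAMTS proteases, measured 10.42, 10.27 and 11.02 early and 11.31, 12.05 and 12.43 late in the adenoma mice. The carcinoma mice had 10.43, 11.13 and 11.69 early and 11.08, 11.64 and 10.53 late. It was higher late in 5 of 6 mice and differed by -1.16 in mouse 3413, with a mean of 0.68 (SE 0.340, limma adjusted p = 0.396). Its crossing pairs averaged 1.18 ± 0.509 (SD, n = 4) and the others -0.321 ± 1.19 (SD, n = 2), so the sign differed between them. Timp2, which helps Mmp14 activate the Mmp2 precursor, measured 10.97, 10.93 and 10.87 early and 11.46, 11.51 and 10.75 late in the adenoma mice, and 10.97, 11.16 and 11.80 early and 11.61, 11.54 and 11.72 late in the carcinoma mice. Its difference was 0.32 (SE 0.119, limma adjusted p = 0.296), positive in 4 of 6 mice, with 0.4 in the crossing pairs and 0.151 in the others. Timp1, an inducible inhibitor, measured 10.37, 9.30 and 9.46 early and 9.79, 10.07 and 11.04 late in the adenoma mice. Its carcinoma values were 10.16, 10.29 and 10.27 early and 9.94, 10.81 and 10.02 late. It was higher late in mice 1803, 1805 and 3407 and lower in the others, with a mean of 0.30 (SE 0.269), or 0.386 in the crossing pairs and 0.136 in the others. Timp4 differed by 0.13 (SE 0.0911), and mouse 1805 was highest at both times, at 8.84 and 8.65.

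**Figure D3:**
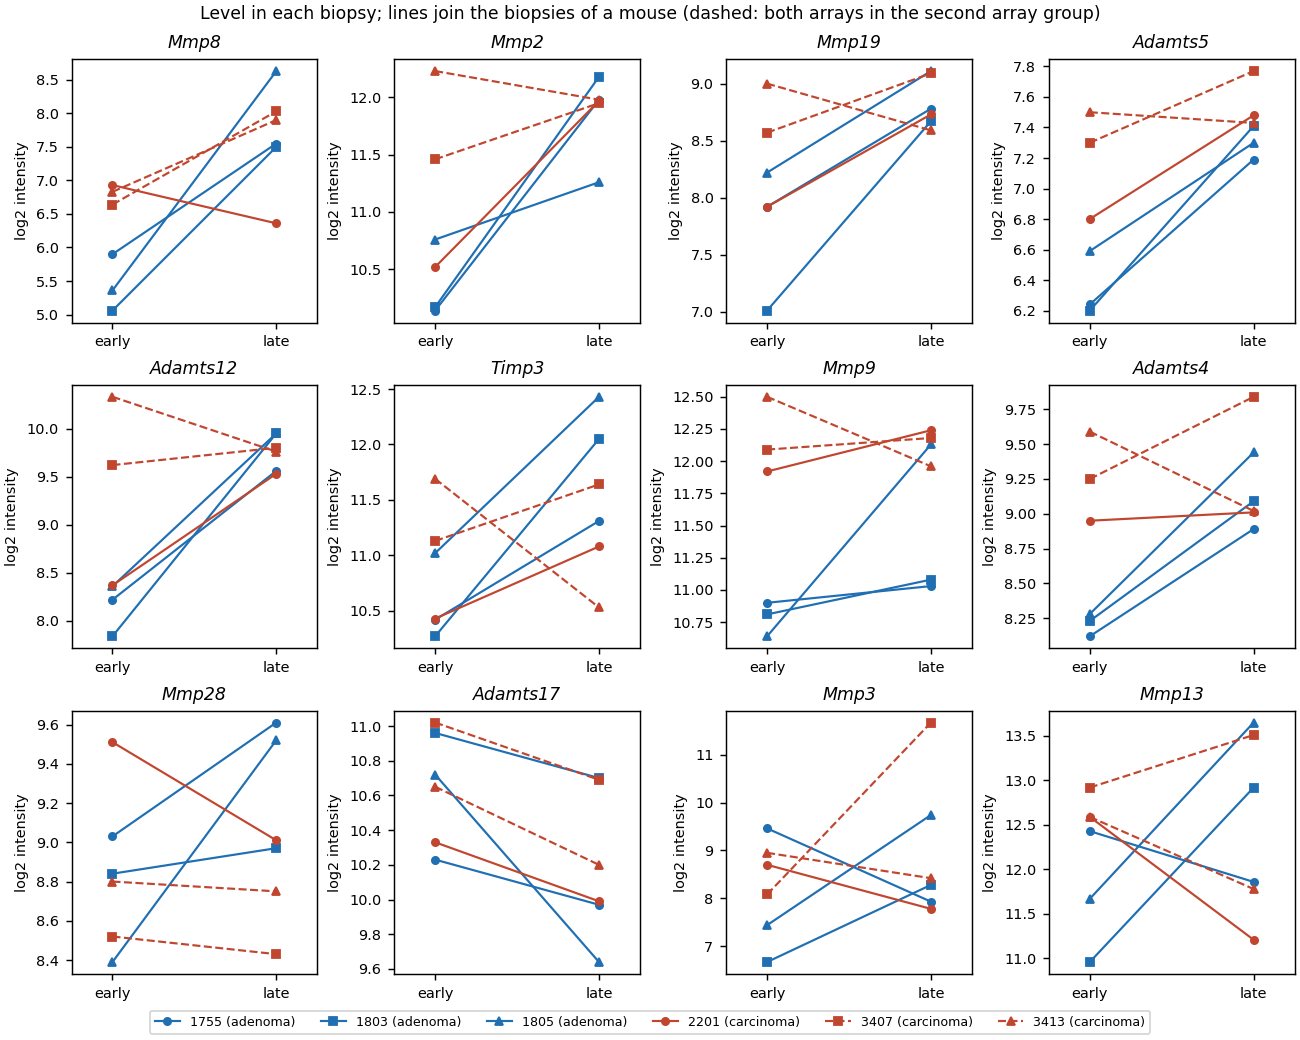
Level of 12 genes in the early and the late biopsy (vertical axis, log2 intensity, own scale for each gene), with a line for each mouse, coloured by final pathology and dashed where both arrays lie in the second array group. Adamts17 is lower late on all 6 lines, at 10.23 and 9.97 in mouse 1755 for example, whereas the 4 solid lines of Adamts12 and Mmp2 end higher and the 2 dashed ones of each point opposite ways.

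The 2 pathologies were then set apart within the same model, which asks whether tumors that ended as adenomas and as carcinomas took different courses. In the adenoma mice 35 of 44 members were higher late, with a median of 0.23, against 47.2% of all genes and a median of -0.0115. None passed the adjusted threshold, which 0.125% of all genes did, and the smallest adjusted p of a member was 0.0814. At an unadjusted p under 0.05 there were 14 members, 13 of them higher late, against 18% of all genes in either direction and 7.38% in the higher direction. Mmp8 was higher late by 2.46 (SE 0.423, limma adjusted p = 0.0866), a size that is not resolved because its early values lie below the dim level. Adamts12 was higher by 1.68 (SE 0.307, limma adjusted p = 0.0891). Mmp2 followed at 1.45 (SE 0.380), Timp3 at 1.36 (SE 0.355), Mmp19 at 1.14 (SE 0.256), Adamts5 at 0.96 (SE 0.157) and Adamts4 at 0.93 (SE 0.205), each higher in all 3 mice. The others higher late were Adamts3, Adamts6, Adamts7, Adamts14, Mmp25 and Mmp28, and Adamts17 was the one lower, at -0.53 (SE 0.164), with -0.27, -0.26 and -1.08 in the 3 mice. Without mouse 1805 the values were -0.261 for Adamts17 and 0.351 for Mmp28, and without mouse 1803 that of Adamts3 was 0.246. Since each adenoma pair is a crossing pair, time point and array group cannot be told apart within these mice. In a model with a term for the array group, which then rests on mouse 2201, the count was 2. These were Mmp8 and the dim Mmp21, and Mmp21 was not among the 14.

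In the carcinoma mice 22 of 44 members were higher late, with a median of -0.0067, against 39.8% of all genes and a median of -0.0289. The mice went different ways, with 22 of 44 higher in mouse 2201, 31 in mouse 3407 and 8 in mouse 3413. The shares of all genes higher late in these mice were 35.07%, 52.57% and 47.04%. The adjusted threshold was passed by 0% of all genes, and the smallest adjusted p of a member was 0.952. Mmp25 was the single member with an unadjusted p under 0.05, at 0.32 (SE 0.118, limma adjusted p = 0.952), where 4.3% of all genes reached it. This count was 6 without mouse 3413 and 0 without mouse 3407, and the Mmp25 value was 0.153 without mouse 2201. Mmp2 differed by 0.56 (SE 0.380) and Mmp8 by 0.63 (SE 0.423) in these mice, and Timp3 by 0.00 (SE 0.355).

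**Figure D4:**
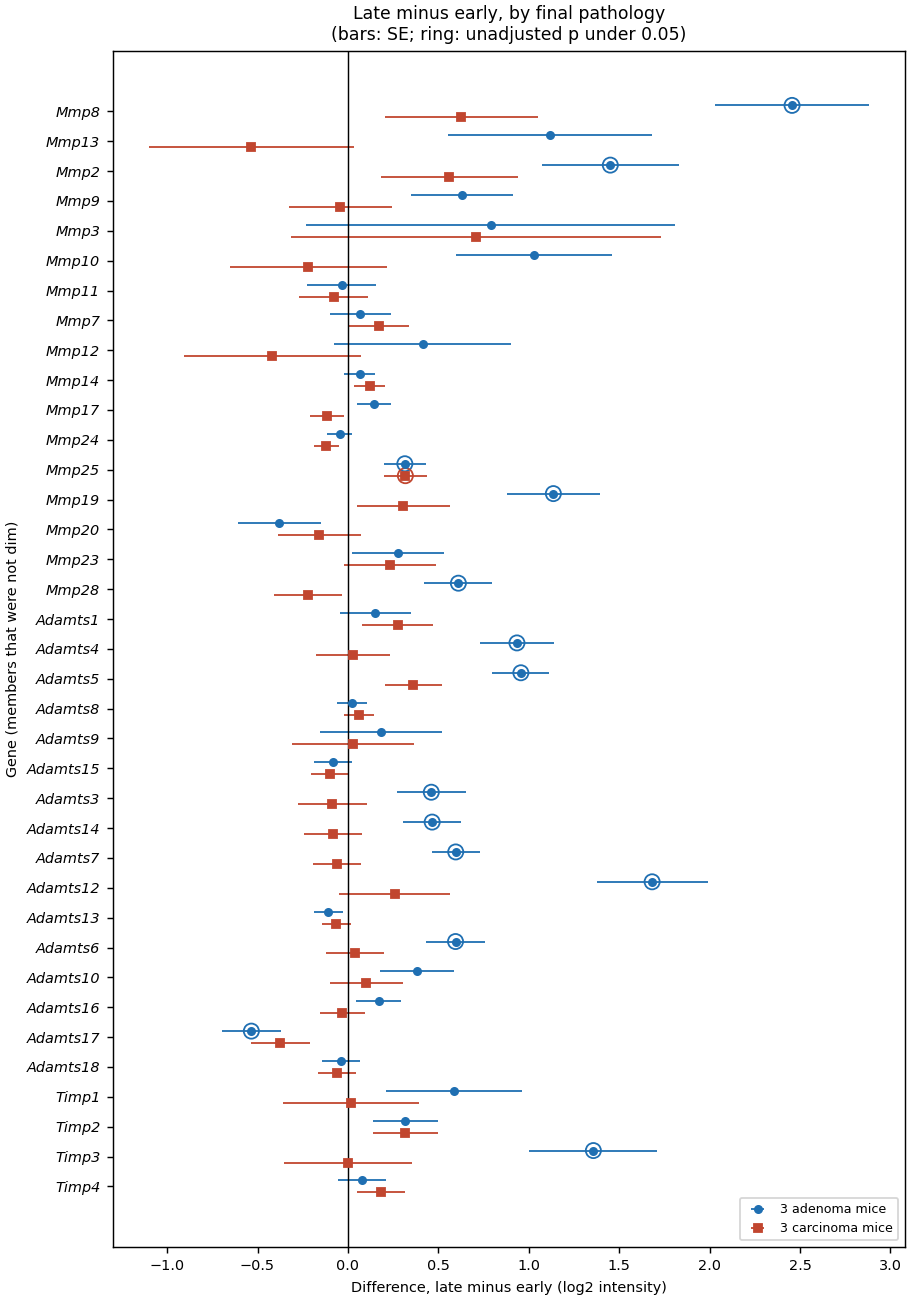
Difference between late and early biopsy (horizontal axis, log2 intensity) of the 37 genes that were not dim, in the 3 adenoma mice (blue) and the 3 carcinoma mice (red), with SE bars and a ring where the unadjusted limma p was under 0.05. Mmp8 stands at 2.46 in adenoma and 0.63 in carcinoma mice, whereas Timp2 lies at 0.32 in both.

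Subtracting the change in adenoma mice from that in carcinoma mice tested the difference itself. It was below 0 for 33 of 44 members, with a median of -0.127, against 10553 of all 19938 genes and a median of -0.0136. No member passed the adjusted threshold, as 0% of all genes did, and the smallest adjusted p of a member was 0.621. All 9 members with an unadjusted p under 0.05 had the smaller change in carcinoma mice, where the share of all genes was 7.04% in either direction and 3.37% in that direction. They were Mmp8 at -1.83 (SE 0.599), Adamts12 at -1.42 (SE 0.434), Timp3 at -1.36 (SE 0.501), Adamts4 at -0.91 (SE 0.291), Mmp28 at -0.83 (SE 0.266), Adamts7, Adamts5, Adamts6 and Adamts14. Mmp28, an epithelial protease known as epilysin, went opposite ways, and its crossing pairs averaged 0.332 and the others -0.0753. It measured 9.03, 8.84 and 8.39 early and 9.61, 8.97 and 9.52 late in the adenoma mice, and 9.51, 8.52 and 8.80 early and 9.01, 8.43 and 8.75 late in the carcinoma mice. It was higher late in 3 of 3 adenoma mice and lower in 3 of 3 carcinoma mice (limma adjusted p = 0.627). The count of 9 was 5 without mouse 1803 and 3 with a term for the array group. Those 3 were Mmp8, Mmp28 and the dim Mmp21, which was not among the 9. Without mouse 3413 Timp3 stood at -0.774 and Adamts5 at -0.384. Of the carcinoma pairs, that of mouse 2201 is a crossing pair, and in it Mmp2, Mmp19 and Adamts12 were higher late by 1.45, 0.81 and 1.16, against 0.49, 0.52 and 0.18 in mouse 3407 and -0.26, -0.41 and -0.57 in mouse 3413.

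Carcinoma and adenoma were next compared at each time point, with the mouse as a random block. The late arrays all lie in the second array group. In late biopsies 22 of 44 members were higher in carcinomas, with a median of 0.000308, against 54.2% of all genes and a median of 0.0158. The adjusted threshold was passed by 0% of all genes, and the smallest adjusted p of a member was 0.41. An unadjusted p under 0.05 was found for 3 members, against 11.7% of all genes. Mmp9 was higher in carcinomas by 0.71 (SE 0.290, limma adjusted p = 0.41), with 12.24, 12.18 and 11.96 against 11.03, 11.08 and 12.13 in adenomas, so that mouse 1805 lay among the carcinomas. Adamts1 was higher by 0.64 (SE 0.283, limma adjusted p = 0.423), and Mmp28 differed by -0.64 (SE 0.269, limma adjusted p = 0.415). The count was 1 without mouse 1805 and 1 without mouse 3407. Mmp9 stood at 1.07 without mouse 1805, and Adamts1 at 0.33 without mouse 3407. Groups that did not overlap were seen for 14.9% of all genes and for 3 members, with Adamts5 and Timp2 higher and Mmp17 lower in carcinomas. Timp3 and Timp4 were lower in carcinomas, at -0.84 (SE 0.412) and -0.83 (SE 0.486), and Timp2 higher at 0.39 (SE 0.229), each with an unadjusted p above 0.05. The late Timp4 level of mouse 1805 was 8.65, against 6.79 and 7.54 in the other adenoma mice, and without it the difference of the means was -0.34. Adamts12, Mmp2 and Mmp19, with large late minus early values in adenoma mice, differed by -0.12, 0.16 and -0.05 between the late groups. The mean of 8 epithelial markers was 11.83 in late carcinomas and 12.62 in late adenomas, that of 8 neutrophil markers 8.652 and 9.229, and that of 8 macrophage markers 10.18 and 9.743, with 7 of these 8 higher in carcinomas. Their part in these values was not tested.

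The comparison of early biopsies shares the 3 early adenoma arrays with the change in adenoma mice. It shares all of its early arrays with the difference between the changes, so these results are not independent. Mmp8, Adamts4, Adamts5, Adamts6, Adamts7 and Adamts12 had an unadjusted p under 0.05 in both. In early biopsies members were mostly higher in the mice whose tumor ended as carcinoma. This was so for 37 of 44 members, with a median of 0.255, against 60.1% of all genes and a median of 0.0407. No member passed the adjusted threshold, as 0% of all genes did, and the smallest adjusted p of a member was 0.203. At an unadjusted p under 0.05 there were 10 members, all higher, against 12% of all genes in either direction and 7.06% in the higher direction. Markers of several cell types were also higher in these mice, 8 of 8 endothelial (median 0.837) and 10 of 10 fibroblast (0.699). So were 7 of 8 neutrophil (0.673, with 1 lower at -1.77) and 7 of 8 macrophage markers (0.326), whereas 7 of 8 epithelial markers were lower (-0.206). Higher markers numbered 4 of 6 for mast cells (0.113), 3 of 5 for smooth muscle (0.0452), 2 of 4 for lymphocytes (-0.0695) and 0 of 3 for Paneth cells (-1.19). Their part in the members' values was not tested. The largest differences were those of Mmp9 at 1.39 (SE 0.290, limma adjusted p = 0.203), Mmp8 at 1.36 (SE 0.466), Adamts12 at 1.30 (SE 0.388), Mmp10 at 1.19 (SE 0.457), Adamts4 at 1.05 (SE 0.244) and Mmp2 at 1.05 (SE 0.408). Adamts5, Mmp19, Adamts7 and Adamts6 followed with 0.86, 0.78, 0.70 and 0.51. The early Mmp8 values of the adenoma mice lie below the dim level and the carcinoma mean 0.02 above it, so the size of that difference is not resolved. Without mouse 3413 the values were 0.857 for Adamts12, 0.633 for Mmp2 and 0.239 for Adamts6, that of Mmp19 was 0.426 without mouse 1803, and that of Adamts6 0.762 without mouse 2201. Groups that did not overlap were seen for 11 members, all higher in the carcinoma mice, and for 18.1% of all genes. The 11 were Mmp8, Mmp9, Mmp10, Mmp13, Mmp17, Adamts4, Adamts5, Adamts7, Adamts12, Adamts14 and Adamts16. The 3 early adenoma arrays and that of mouse 2201 share the first array group, so mouse 2201 gives the comparison within it. There Mmp9 was higher in mouse 2201 than the adenoma mean by 1.14 and in mice 3407 and 3413 by 1.51. Mmp8 was likewise higher by 1.49 and 1.30, Mmp10 by 0.96 and 1.30, and Adamts4 by 0.74 and 1.21. Mmp2 was higher by 0.16 in mouse 2201 and by 1.49 in the others, Adamts12 by 0.23 and 1.84, Mmp19 by 0.20 and 1.07, and Adamts6 by -0.01 and 0.76. Adamts5 was higher by 0.46 and 1.05 and Adamts7 by 0.29 and 0.90. Within the first array group mouse 2201 thus lay between -0.01 and 1.49 from the adenoma mean over these 10 members. Of the 37 members that were not dim, 28 were above the adenoma mean in mouse 2201 and 30 in mice 3407 and 3413. Over the 3 carcinoma mice together, 59.6% of all genes that were not dim were higher. That share was not counted for mouse 2201 alone. The count of 10 was 6 without mouse 3407 or without mouse 3413, and 5 with a term for the array group. Those 5 were Mmp8, Mmp9, Adamts4, Adamts5 and the dim Mmp21, which was not among the 10.

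**Figure D5:**
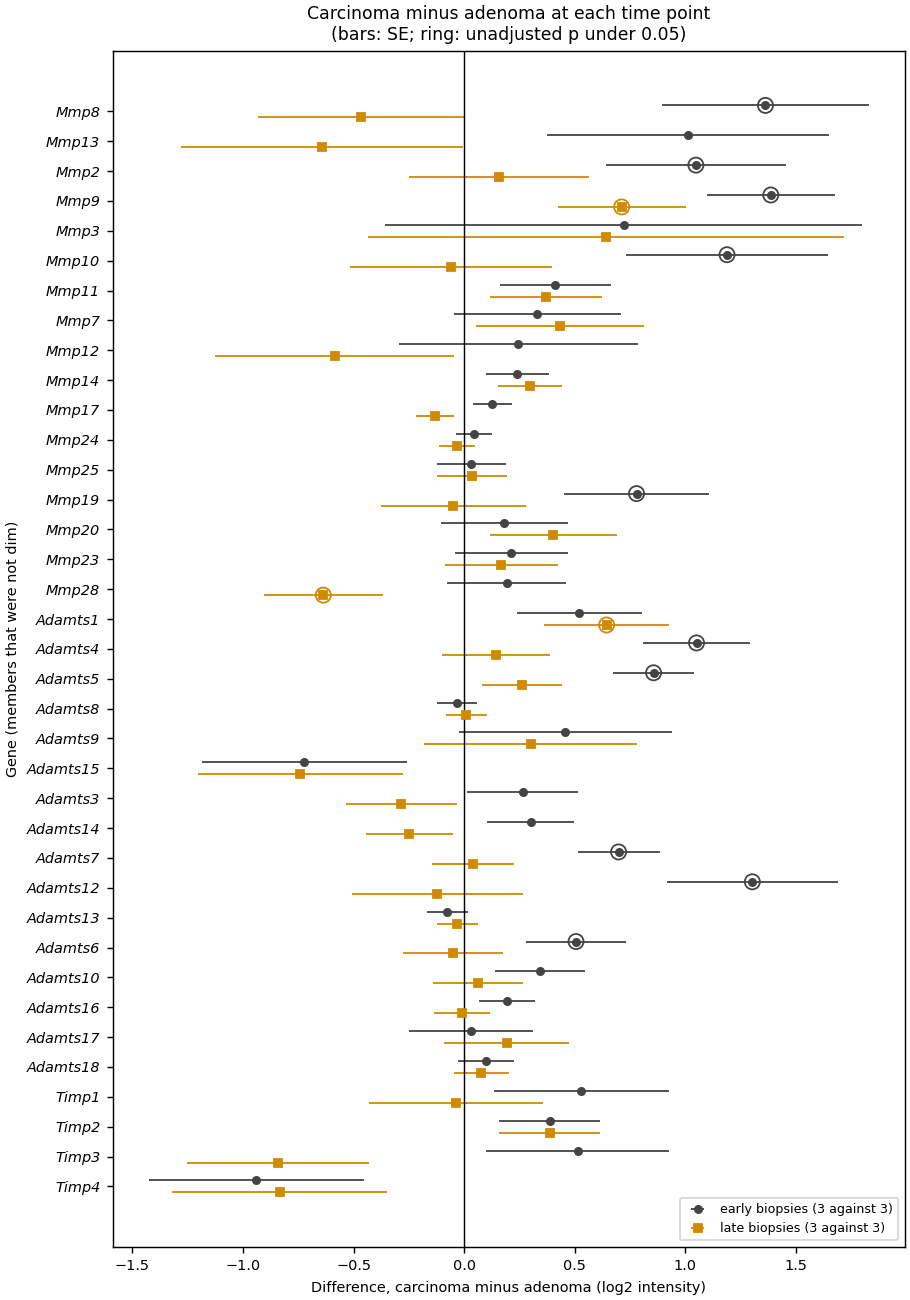
Difference between carcinoma and adenoma mice (horizontal axis, log2 intensity) of the 37 genes that were not dim, in early (black circles) and late (orange squares) biopsies, 3 mice against 3, with SE bars and a ring where the unadjusted limma p was under 0.05. Mmp9 lies right of 0 at both times, at 1.39 early and 0.71 late, whereas Adamts12 stands at 1.30 early and -0.12 late.

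Genes that act with these proteases were followed on 7 lists, over all 6 mice and with no gene past the adjusted threshold in that comparison. Of all genes, 42.1% were higher late, with a median of -0.0203. The share of all genes with an unadjusted p under 0.05 was 14.7% in either direction and 5.68% in the higher direction. Of 20 measured substrates, 18 were higher late, with a median of 0.577, and 9 had an unadjusted p under 0.05. Among them Vwf differed by 0.90 (SE 0.226), Bgn by 0.95 (SE 0.291), Col4a2 by 0.70 (SE 0.232) and Col1a2 by 0.90 (SE 0.300). The substrate list, like many members, differed by 0.7173 on average in the crossing pairs and by -0.05041 in the pairs within the second array group. Of 13 inducers and surface partners, 10 were higher late, and 4 had an unadjusted p under 0.05, namely Tgfb1 at 0.39, Cav1 at 0.77, Itgb3 at 0.71 and Osm at 0.98. All 7 ADAMTS-like proteins, which lack a protease domain, were higher late, with a median of 0.101 and Adamtsl3 at 0.20. ADAM sheddases were higher in 5 of 9, with Adam19 at 0.90 (SE 0.300) and Adam15 at 0.26 (SE 0.0788). Activators split evenly, 6 of 12, with the collagen-cutting cathepsin Ctsk higher by 1.11 (SE 0.241) and the plasminogen activator Plat at -0.53 (SE 0.185). Of 8 inhibitors and clearance genes 6 were higher, and the clearance receptor Lrp1 differed by 0.65 (SE 0.173). Of 12 transcription factors of MMP genes 7 were higher, and the AP-1 members Fosb and Jund differed by -0.58 (SE 0.176) and -0.15 (SE 0.0538).

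Markers of 9 cell types were counted in the same comparison, in which 42.1% of all genes were higher late. All 10 fibroblast, all 8 endothelial, all 5 smooth muscle and all 4 lymphocyte markers were higher late, with medians of 0.694, 0.894, 0.275 and 0.394. Of the neutrophil markers 6 of 8 were higher (median 0.829), of the macrophage markers 7 of 8 (0.226), of the Paneth markers 2 of 3 (0.107), of the epithelial markers 3 of 8 (-0.0151) and of the mast cell markers 1 of 6 (-0.678). Among adenoma mice the endothelial gene Egfl7 rose by 0.98 (SE 0.0927, limma adjusted p = 0.0378), the one gene of all these lists that passed the adjusted threshold. With a term for the array group, or without mouse 1755, 1803 or 1805, 0 of all genes passed it in these mice. Endothelial markers differed on average by 1.249 in the crossing pairs and by -0.04622 in the others, fibroblast markers by 1.079 and -0.0801, and macrophage markers by 0.4212 and -0.02597. Neutrophil markers differed by 0.6117 and 0.4139. In mouse 3413 8 of 44 members were higher late, against 47.04% of all genes. There the marker means differed by -0.8836 for mast cells, -0.7242 for smooth muscle, -0.5423 for fibroblasts and -0.127 for endothelium. Macrophage and epithelial means differed by -0.02291 and -0.003664, and lymphocyte, neutrophil and Paneth means by 0.3361, 0.7324 and 1.608. The part of cell content in the members' values was not tested.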

How the data were processed

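Biotin-labelled RNA of 12 biopsies was measured on 12 Affymetrix arrays. The deposited values were read as log2 intensity from their range, since the labels give no unit; the summarising and normalising method of the authors was not given in the sources used here. Of 35557 probe sets, 21789 name 1 gene and were used, 1621 name several and 12147 none; 21698 matched RefSeq by gene identifier. Of genes with several probe sets the brightest was kept, which left 19938 genes. Pairing comes from the animal named in the labels. Deviations from the time point means correlated at 0.110 to 0.527 within the 6 pairs. Arrays of different mice were not correlated in this way, so these values do not test the pairing.

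The main fits used limma 3.58.1 (R 4.3.3, lmFit and eBayes, 2-sided moderated test, Benjamini-Hochberg over all genes, threshold 0.05), with mouse as a fixed block within mice (residual degrees of freedom 5, or 4 by pathology) and as a random block between pathologies (consensus correlation 0.286, residual degrees of freedom 8). The script was tested on simulated data. SE is that of the moderated test and ± the SD over mice. The number of arrays limits the precision.

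Members, subfamilies, gene lists and the array groups were chosen with earlier results of these data known. Values per mouse are given for 15 fixed members and for members that were not dim among the 6 per direction with the smallest unadjusted p under 0.05 in a comparison, and up to 4 genes of a list are named. Alternatives were quantile normalization, a filter on dim genes, the mean of a gene's probe sets, an intensity trend, no mouse block, the array group as a term, single time points, and leaving out each mouse.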

Additional observations from a re-analysis of the deposited data

Results flagged for a closer look

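Within the 6 early or the 6 late biopsies, 1 array stood apart from the other 5 in 9 of the 74 groups of values examined for the members that were not dim. The rule gives about 1 in 20 for independent, normally distributed values, but these groups share the same 12 arrays. The share over all genes was not counted. Mouse 1805 was that array in 7 of the 9, and over all genes it had the largest share that differed by more than 1 between biopsies (4.77%). Its late biopsy had Mmp12 at 12.55 (the others 9.97 to 10.86), Mmp2 at 11.26 (11.95 to 12.18), Mmp7 at 11.36 (12.77 to 13.19) and Timp2 at 10.75 (11.46 to 11.72). Adamts15 stood at 9.53 in its early biopsy (the others 7.49 to 7.76) and at 9.33 in its late one (7.31 to 7.82), and Timp4 at 8.84 early (6.38 to 7.26). The early biopsy of mouse 1755 had Adamts1 at 7.83 (8.57 to 9.01), and that of mouse 3413 Timp2 at 11.8 (10.87 to 11.16). Mmp17 and Mmp28 were higher late in all 3 adenoma mice and lower in all 3 carcinoma mice. For Mmp17 the carcinoma values were only -0.00 in mouse 2201 and -0.02 in mouse 3407, with -0.32 in mouse 3413. The share of all genes with such opposite directions was not counted. The change in carcinoma minus that in adenoma mice was -0.26 for Mmp17 (limma adjusted p = 0.744) and -0.83 for Mmp28 (limma adjusted p = 0.627), so neither passed the adjusted threshold.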

How the results depend on the processing

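No member passed the adjusted threshold under any alternative run, so what follows are counts of members with an unadjusted p under 0.05. With an array group term, counts were 1 in place of 8 over all mice and 2 in place of 14 in adenoma mice. They were 3 in place of 9 for the difference between pathologies and 5 in place of 10 in early biopsies. The 1 over all mice was Adamts6, at -0.223 against 0.316 in the main fit, and not among the 8. In adenoma mice the members were Mmp8 and Mmp21, and for the difference Mmp8, Mmp21 and Mmp28. In early biopsies they were Mmp8, Mmp9, Mmp21, Adamts4 and Adamts5. The dim Mmp21 was in none of the main lists. Under this term 21 of 44 members turned sign over all mice, 16 in adenoma mice, 12 in carcinoma mice, 9 for the difference and 11 in early biopsies. Those with an unadjusted p under 0.05 beforehand were Adamts12 over all mice (-0.193), Adamts3 (-0.0687), Adamts6 (-0.188) and Mmp25 (-0.179) in adenoma mice, and Adamts6 in early biopsies (-0.011). Leaving out 1 mouse gave 6 to 15 over all mice, 12 to 17 in adenoma mice, 0 to 6 in carcinoma mice (3 without mouse 1805), 5 to 10 for the difference, 1 to 3 in late and 6 to 12 in early biopsies. In carcinoma mice quantile normalization gave 2 and the fit with no replicate block 0, in place of 1. With no replicate block the counts elsewhere were 7 over all mice, 12 in adenoma mice, 7 for the difference, 2 in late and 9 in early biopsies, within 1.5 times the main ones. Quantile normalization moved array medians by at most 0.0692 and turned the sign of 11 member values, each with an unadjusted p of 0.602 or more. Background limits what can be read from the 7 dim members and from the early Mmp8 and Adamts5 values.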

Other observations

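Mmp3, Mmp10, Mmp13 and the inhibitor Timp1 shared their direction in each mouse, higher late in mice 1803, 1805 and 3407 and lower in mice 1755, 2201 and 3413. This was noticed after the values were seen. In all, 316 of 19938 genes (1.58%) had the same directions in the same mice. Members that differed by more than 1 on the log2 scale were most frequent in mouse 1805, with 11 higher and 1 lower late, and in mouse 1803, with 9 higher and 0 lower. Over all genes the share that differed by more than 1 was also highest in mouse 1805, at 4.77%, against 3.31% in mouse 1803, 3.034% in mouse 1755, 2.944% in mouse 2201, 1.399% in mouse 3407 and 0.5617% in mouse 3413. Members past 1 numbered 3 higher and 2 lower in mouse 1755, 2 higher and 1 lower in mouse 2201, 2 higher and 0 lower in mouse 3407, and 1 higher and 1 lower in mouse 3413. Mice 1805 and 1803 had the oldest late biopsies among the 6, at 395 and 369 days. Both are also adenoma mice with crossing pairs, and the part of age, pathology or array group was not tested.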
